A study of Mus musculus with 8 samples.

Results

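Chemokine ligands and their receptors were read in undifferentiated pleomorphic sarcomas (UPS) with and without HIF-2α. The members were all genes of the deposited counts table with a Ccl, Cxcl, Ccr or Cxcr symbol and a number, together with Cx3cl1, Cx3cr1 and Xcr1. This rule gave 57 of 26667 genes, of which 38 were ligands and 19 receptors. KP mice carried Trp53 fl/fl, and KPH2 mice carried Epas1 fl/fl in addition, so that both groups shared the tumour-initiating alleles and the controls kept Epas1, which encodes HIF-2α. Mice of both sexes on a Mixed 129/C57BL/6 strain, aged at least 8 weeks, received adenoviral Cre in the right hind limb muscle. Tumours were collected 7 weeks later or at the size limit. The promoter that drove Cre is not given in the sources used here, and host cells in a section that the virus did not reach keep Epas1.

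RNA came from formalin-fixed, paraffin-embedded sections, with 1 library per tumour, from 4 KP tumours (numbered 5 to 8) and 4 KPH2 tumours (numbered 1 to 4). Of these, 1 tumour without HIF-2α was excluded by the study after principal component analysis. KPH2 1 is missing from its table of normalised values for 7 tumours, so KPH2 1 is shown apart here and the main comparison set KP 5, 6, 7 and 8 against KPH2 2, 3 and 4. Levels are CPM, the counts of a gene relative to the TMM-scaled library size. Log2 fold changes are KPH2 over KP from the quasi-likelihood test of edgeR, each with its standard error (SE), and p-values were adjusted over every tested gene by the Benjamini-Hochberg method. The labels and methods do not tie the samples to further replicates, so p-values measure the spread between tumours only.

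Chemokines are small secreted proteins that steer leukocytes along gradients by binding G protein-coupled receptors on the cell surface. They are sorted by the spacing of the first cysteines of the mature protein into CC, CXC, CX3C and XC families, and a ligand can often bind several receptors of its family. In tumours, CC ligands such as Ccl2 draw monocytes that become macrophages, CXC ligands of the Cxcl1 group draw neutrophils, and interferon-induced CXC ligands draw activated T cells.

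Sequences around the first cysteines are given for members of the main results. They are coding bases of GENCODE M21 transcripts (GRCm38), with the cysteine codons in capitals: adjacent codons in CC ligands, 1 codon between them in CXC ligands and 3 in Cx3cl1. Each pair was searched for with the spacing of the family in the gene symbol, so the windows illustrate the families and do not test them. The Ccl21b window is given because Ccl21a shares much of its sequence with that copy.
Ccl2, coding bases 76 to 129: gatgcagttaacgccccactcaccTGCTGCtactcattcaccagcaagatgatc
Ccl7, coding bases 73 to 126: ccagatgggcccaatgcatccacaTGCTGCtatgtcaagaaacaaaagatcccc
Ccl11, coding bases 70 to 123: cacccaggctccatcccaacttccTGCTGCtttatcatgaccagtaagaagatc
Ccl12, coding bases 73 to 126: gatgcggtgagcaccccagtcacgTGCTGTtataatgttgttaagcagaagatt
Ccl8, coding bases 70 to 123: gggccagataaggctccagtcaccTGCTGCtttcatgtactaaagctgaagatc
Ccl21a, coding bases 67 to 120: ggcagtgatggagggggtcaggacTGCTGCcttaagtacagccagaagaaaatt
Ccl21b, coding bases 67 to 120: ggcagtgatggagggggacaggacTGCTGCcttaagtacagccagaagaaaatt
Cxcl1, coding bases 73 to 129: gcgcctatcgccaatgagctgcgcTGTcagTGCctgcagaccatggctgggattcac
Cxcl12, coding bases 64 to 120: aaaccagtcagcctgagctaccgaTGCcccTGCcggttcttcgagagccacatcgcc
Cx3cl1, coding bases 70 to 132: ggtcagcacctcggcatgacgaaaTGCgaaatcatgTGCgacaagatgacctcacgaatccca

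Libraries held 6463221 to 13155510 counts, of which the members took 0.0808 to 0.224%. All pairs of libraries differed by more than sampling noise (chi-square over its degrees of freedom of 28.3 for the closest pair, KP 6 and KP 8). Epas1 stood at 59.2, 83.2, 86.9 and 84.1 CPM in the KP tumours and at 53.4, 37.7 and 42.5 CPM in KPH2 2, 3 and 4, with 32.6 CPM in KPH2 1, so every KPH2 tumour lay below every KP tumour (log2 fold change -0.81, edgeR adjusted p = 0.0742). The labelled sarcoma matched its markers, since Vim, collagen and other mesenchymal genes summed to 18200 to 27800 CPM in KP and 11300 to 20700 CPM in KPH2 2 to 4. Skeletal muscle markers summed to 590 to 1360 CPM in KP and 1470 to 6630 CPM in KPH2 2 to 4, with 561 CPM in KPH2 1, and 20 of 20 were higher in KPH2 over the 7 tumours, all 20 at an unadjusted p of 0.05 (100%, against 17.8% of all genes), with Eno3 and Neb called over the 7 (10%, against 1.96%) and not over all 8. Of the 12 mesenchymal markers 9 were lower in KPH2, with 5 of the 12 at an unadjusted p of 0.05 (41.7%) and Pdgfra called over the 7 (8.33%) and not over all 8, as were 8 of 10 endothelial markers and both tested B and plasma cell markers, with 0 called in either list (4 and 0 at an unadjusted p of 0.05, 40% and 0%).

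Of the 57 members, 39 passed the filter on low counts over the 7 tumours, 27 ligands and 12 receptors. Of the others, 4 (Ccl21b, Ccl21c, Ccl26 and Ccl27b) had 0 counts in all 8 libraries. With 3 counts as the floor, a count of 0 allows up to 0.223 CPM in the deepest library and up to 0.445 CPM in KP 7, for counting error only. That bound does not cover Ccl21b or Ccl27b. Of their 100-base reads 100% and 97.9% also occur in other genes, and the counts hold unique alignments only. For Ccl21c no 100-base reads could be listed, so its bound is not known either. The 14 further untested members were Ccl1, Ccl17, Ccl19, Ccl20, Ccl28, Cxcl15, Cxcl17, Ccr3, Ccr4, Ccr6, Ccr8, Ccr10, Cxcr1 and Cxcr5. Each of these 14 had counts in at least 1 library. The highest level of any of them was 1.44 CPM, for Ccr3 in KPH2 1, and Ccl28 reached 1.40 CPM in KPH2 3.

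Per kb of exon, the chemokine ligands with the highest levels over all 8 tumours were 4 neighbours of 1 gene cluster. The mean was 71.3 CPM per kb for Ccl12, 65.3 for Ccl2, 58.3 for Ccl7 and 55.5 for Ccl8, each of which binds receptors of monocytes. Their ranges over the tumours overlapped widely, from 42.6 to 119 CPM per kb for Ccl12 and from 16.4 to 165 CPM per kb for Ccl7, so these neighbours in the order did not stand apart. Ccl6 (34.8 CPM per kb), Ccl9 (25.8), Cxcl14 (24.3), Cxcl12 (22.6) and Cxcl16 (18.9) followed. Among receptors the highest described were Cx3cr1 (34.0 CPM per kb), Ccr1 (24.1), Cxcr4 (17.8), Ccr2 (17.5) and Cxcr7 (16.2). Receptors of lymphocytes stood lower, with 3.48 CPM per kb for Cxcr6, 0.97 for Ccr7 and 0.801 for Cxcr3. The neutrophil receptor Cxcr2 stood at 0.361 CPM per kb and the dendritic cell receptor Xcr1 at 0.351.

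**Figure D1:**
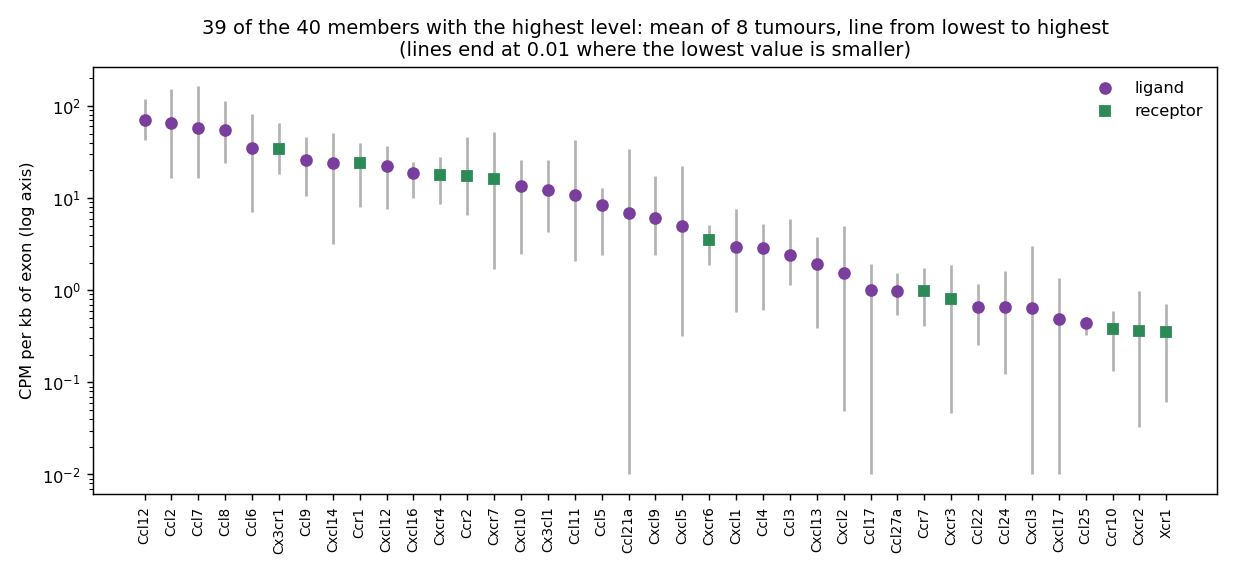
Mean level of 39 of the 40 members with the highest values, in CPM per kb of exon on a log axis, over all 8 tumours, with a line from the lowest to the highest tumour. Ccl12, Ccl2, Ccl7 and Ccl8 lead the order at 55.5 to 71.3 CPM per kb, and Cx3cr1 leads the receptors at 34.0.

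No member passed an adjusted p of 0.05 in edgeR. The count was 0 of 39, against 1.96% of the 14867 genes tested. At an unadjusted p of 0.05, 8 of 39 members (20.5%) passed, against 17.8% of all genes. Of these, 6 were lower in KPH2 (15.4%, against 9.26% of all genes), namely Ccl7, Ccl2, Ccl24, Ccl11, Cxcl11 and Cxcl1, and Ccl21a and Cxcr7 were higher (5.13%, against 8.5%). Ccl24 and Cxcl11 passed the low-count filter through KP tumours alone, with no KPH2 tumour of 2 to 4 at its cut-off of 0.993 CPM, so they had to be lower and their part in the count of 6 is no support. With a filter on the mean count over the 7 tumours instead (at least 50), 4 of 24 members were lower at an unadjusted p of 0.05 (16.7%, against 9.37% of all genes). DESeq2 called 5 of the 46 members it tested (10.9%, against 7.2% of all genes), Ccl2, Ccl7 and Ccl11 lower and Ccl21a and Cxcr7 higher. With limma on the authors' normalised values 1 of 53 members, Ccl21a, passed (1.89%, against 1.44% of all genes). Over all 8 tumours edgeR called 0 of 38 members, against 0.00675% of genes, 7 were lower (18.4%, against 8.02%) and 1 higher (2.63%, against 6.65%) at an unadjusted p of 0.05, and DESeq2 called Ccl2, Ccl7 and Ccl11 (3 of 45, 6.67%, against 4.06%).

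The direction was mostly towards lower levels in KPH2. Of the 39 tested members, 31 (79.5%) had a negative log2 fold change, against 52% of all genes tested, and over all 8 tumours 29 of 38 did (76.3%, against 49.1%). With the filter on the mean count 20 of 24 did (83.3%, against 51.7%). The median was -0.52 over the members, -0.52 over the ligands and -0.44 over the receptors, beside -0.02 over all genes. Over all 8 tumours it was also -0.52, beside 0.01 over all genes. With skeletal muscle markers as a covariate the members' median was -0.10 and with macrophage markers as a covariate it was 0.42, a change of sign under the latter. The muscle sums did not overlap between KP and KPH2 2 to 4, and the macrophage sums overlapped only through KP 5. With 7 tumours these fits, here and below, therefore cannot separate genotype from either score. Like the markers of several other cell types, macrophage and monocyte markers were mostly lower in KPH2. Their sum ranged from 2560 to 4650 CPM in KP and from 1910 to 2850 CPM in KPH2 2 to 4 and stood at 2400 CPM in KPH2 1, and 13 of 14 were lower in KPH2 (against 52% of all genes, median log2 fold change -0.58), with 0 called and 5 at an unadjusted p of 0.05 (35.7%, against 17.8% of all genes). Leukocyte markers summed to 605 to 1060 CPM in KP and to 551 to 612 CPM in KPH2 2 to 4 (6 of 6 lower, 0 called), with 4 at an unadjusted p of 0.05 (66.7%, against 17.8%). The part of leukocyte markers in the members' levels was not tested. In bulk tumour RNA, fewer cells of a type and less RNA per cell cannot be told apart.

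**Figure D2:**
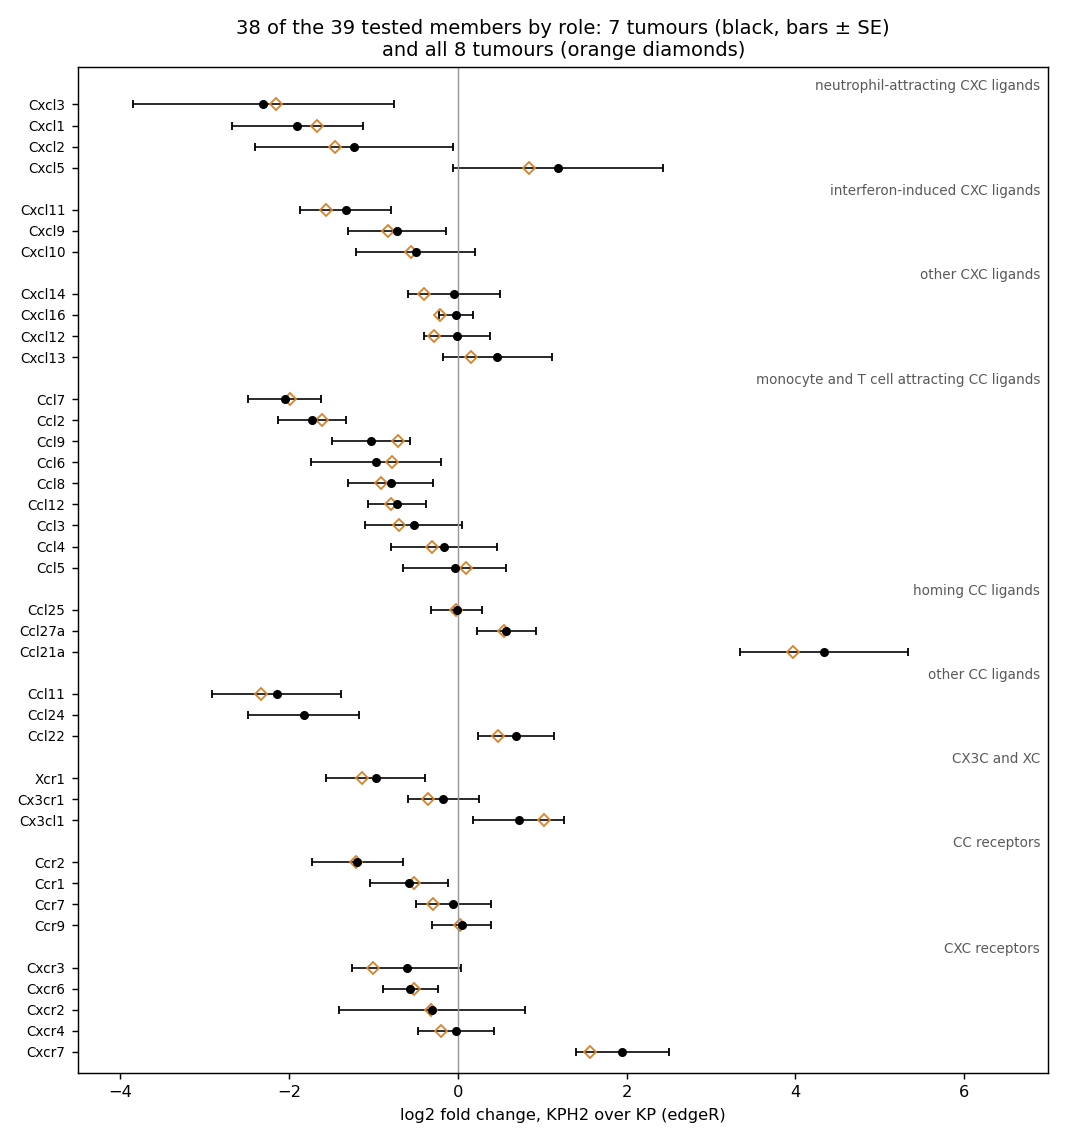
Log2 fold change of KPH2 over KP for 38 of the 39 tested members, grouped by role, with the 7-tumour value in black (bars ± SE, edgeR) and the value over all 8 tumours as an orange diamond. Most points lie left of 0, Ccl7 at -2.05 and Ccl2 at -1.73 with short bars, and Ccl21a lies far to the right at 4.34.

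The ligands that draw monocytes and T cells included Ccl7, the member with the smallest p. All 9 of this role were tested and all 9 had a negative log2 fold change over the 7 tumours, against 52% of all genes. The values ran from -2.05 to -0.04 with a median of -0.80, although Ccl5 was at 0.10 over all 8. Ccl7, a ligand of Ccr1, Ccr2 and Ccr3, stood at 44.3, 77.5, 44.2 and 132 CPM in KP 5 to 8. In KPH2 2, 3 and 4 it stood at 22.1, 13.1 and 18.7 CPM, and KPH2 1 had 21.3 CPM. Every KPH2 tumour was thus below every KP tumour, with KP 8 the highest. The KP mean was 74.5 ± 41.4 CPM (SD, n = 4) and the KPH2 mean 18.0 ± 4.56 CPM (SD, n = 3), a ratio of 4.14 (log2 fold change -2.05, SE 0.44, edgeR adjusted p = 0.0607). DESeq2 gave an adjusted p of 6.74e-05. With each tumour left out in turn the log2 fold change ranged from -2.24 to -1.62 (without KP 8), and the edgeR adjusted p from 0.0466 without KP 5, the only 1 of 7 to pass, to 0.155 without KPH2 4.

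Ccl2, the main ligand of Ccr2 and a chemoattractant of monocytes, showed the same order. The KP tumours stood at 75.2, 121, 77.8 and 174 CPM. Values were 45.8, 18.6 and 37.2 CPM in KPH2 2, 3 and 4, and 44.6 CPM in KPH2 1. The groups did not overlap with or without KPH2 1. The means were 112 ± 46.2 CPM (SD, n = 4, KP) and 33.9 ± 13.9 CPM (SD, n = 3, KPH2), a ratio of 3.31 (log2 fold change -1.73, SE 0.40, edgeR adjusted p = 0.0745). DESeq2 gave an adjusted p of 0.000604 over 7 tumours and 0.00152 over all 8. Ccl2 and Ccl7 were the only 2 of 39 tested members to lie below every KP tumour (5.13%, against 8.15% of all genes over 7 tumours and 4.46% over 8).

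As a share of the summed macrophage and monocyte markers in the same tumour, Ccl2 was 2.94, 2.61, 1.79 and 4.05% in KP 5 to 8 and 2.4, 0.717 and 1.31% in KPH2 2, 3 and 4, with 1.86% in KPH2 1. For Ccl7 the shares were 1.73, 1.67, 1.02 and 3.08% in KP and 1.16, 0.505 and 0.657% in KPH2 2, 3 and 4, with 0.886% in KPH2 1. Scaled this way the groups overlapped for both genes, since KPH2 2 lay above KP 7 (as did KPH2 1 for Ccl2), and KP 8 was the highest. When the macrophage marker score entered the fit, Ccl2 was at -0.90 on the log2 scale (edgeR adjusted p = 0.71) and Ccl7 at -0.97 (edgeR adjusted p = 0.692). With the skeletal muscle score they were at -1.41 and -1.97 (edgeR adjusted p = 0.65 and 0.535).

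**Figure D3:**
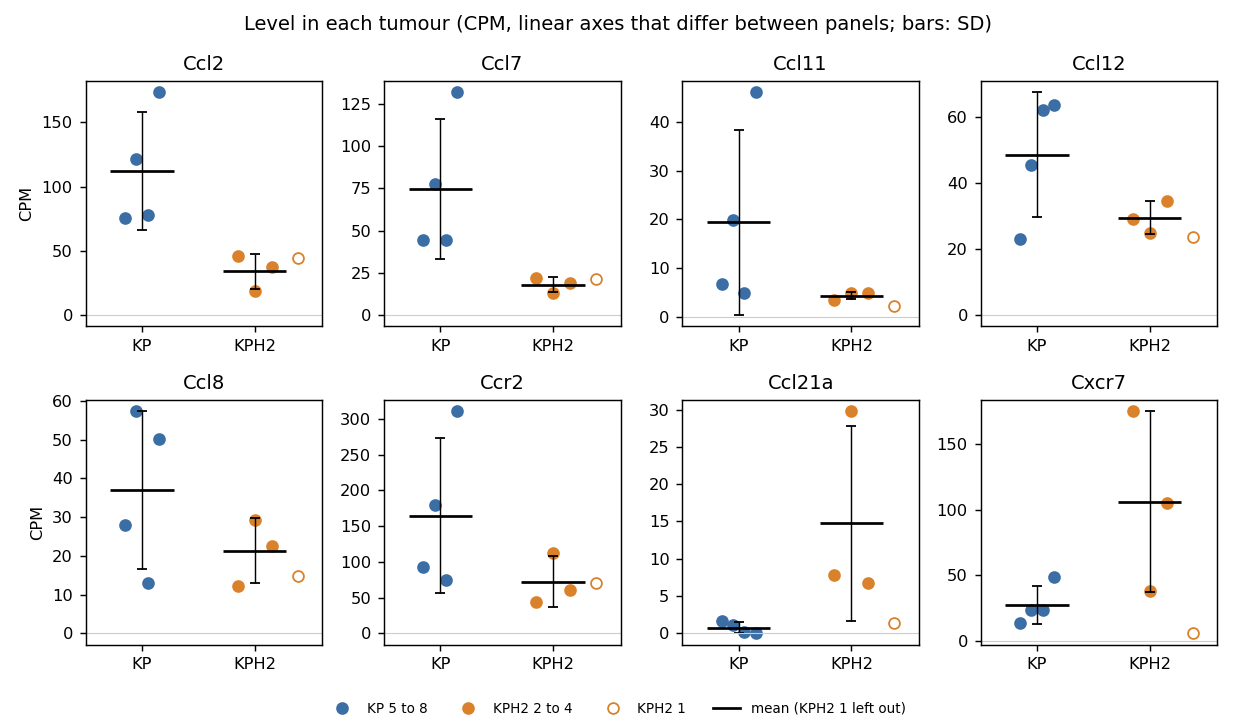
Level of 8 members in each tumour, in CPM on linear axes that start near 0 and differ between panels, with filled points for KP 5 to 8 and KPH2 2 to 4, an open point for KPH2 1, and bars for mean ± SD without KPH2 1. Ccl2 and Ccl7 do not overlap between groups, while KPH2 1 lies with the KP tumours for Ccl21a and below them for Cxcr7.

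Ccl2 and Ccl7 lie side by side on chromosome 11 of GRCm38 (chr11:82035577-82037452 and chr11:82045712-82047525), in a cluster of 6 members that spans 144.2 kb from Ccl2 to Ccl1. All 5 tested genes of the cluster had a negative log2 fold change (median -1.73), against 52% of all genes. The first 3, Ccl2, Ccl7 and Ccl11, were at -1.73, -2.05 and -2.14, and Ccl12 and Ccl8, 66.3 and 79.6 kb from the start of Ccl2, were at -0.72 (SE 0.34) and -0.80 (SE 0.51). None of the 100-base reads that these 5 genes could give occurs in another gene. The CC cluster that follows on this chromosome, Ccl5 to Ccl4 (138.9 kb), held 5 tested genes with a median of -0.52. Ccl9 and Ccl6, ligands of Ccr1, were at -1.03 (SE 0.46) and -0.97 (SE 0.77) there, and Ccl5, an attractant of T cells, was at -0.04 (SE 0.61). Ccl3 (-0.52) and Ccl4 (-0.17) overlap on opposite strands, and the strand setting of the counting is not given in the sources used here. Ccl3, Ccl4, Ccl5, Ccl6, Ccl8, Ccl9, Ccl24, Ccl28, Cxcl3, Ccr3, Cxcr2 and Cxcr3 fall outside the naming rule and were chosen after their values were seen.

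**Figure D4:**
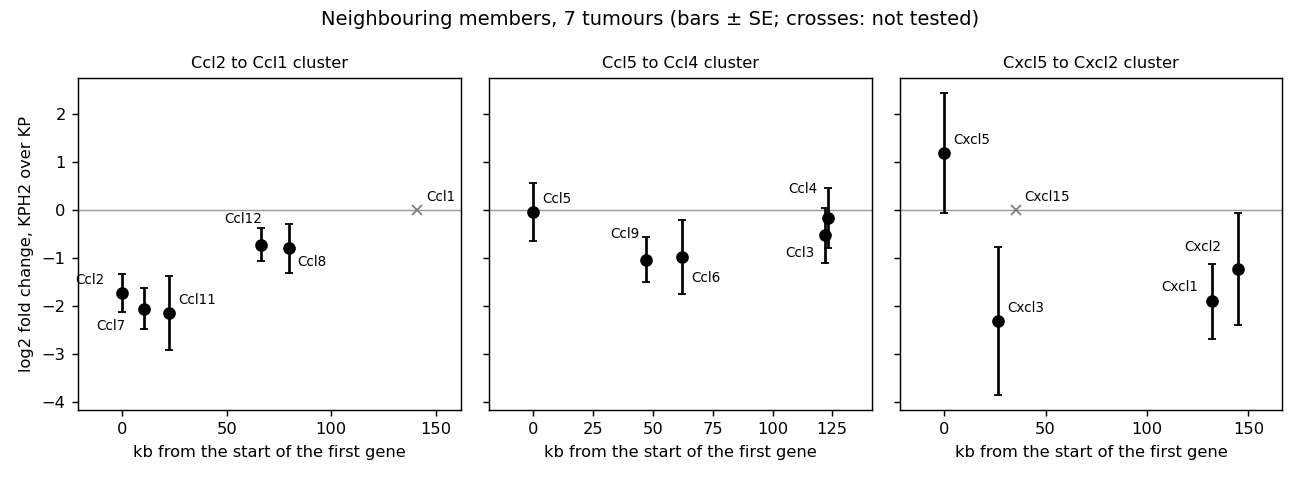
Log2 fold change (KPH2 over KP, 7 tumours, bars ± SE) against distance in kb from the start of the first gene in 3 gene clusters, with crosses for members that were not tested. In the Ccl2 cluster the 3 genes nearest the start lie between -2.14 and -1.73, and Ccl12 and Ccl8 lie at -0.72 and -0.80.

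Ccl11, the eosinophil attractant eotaxin, is the third gene of that cluster. It stood at 6.83, 20, 4.89 and 46.0 CPM in KP 5 to 8. KPH2 2, 3 and 4 had 3.51, 4.90 and 4.85 CPM, and KPH2 1 had 2.24 CPM. KP 7 lay among the KPH2 tumours and KP 8 far above. The log2 fold change was -2.14 (SE 0.77, edgeR adjusted p = 0.197), and without KP 8 it was -1.25. With the macrophage score as a covariate its sign turned, to 0.18. Ccl12, a Ccr2 ligand of the mouse, was at 22.9, 45.6, 62.0 and 63.8 CPM in KP and at 29.1, 24.7 and 34.6 CPM in KPH2 2, 3 and 4, with 23.7 CPM in KPH2 1. KP 5 was the lowest of all 8, so the groups overlapped (exact permutation p = 0.20 over 7 tumours), and with the macrophage score the log2 fold change turned from -0.72 to 0.42. Ccl8 ranged from 12.9 to 57.3 CPM in KP and from 12.3 to 29.1 CPM in KPH2 2 to 4. Ccl24, a ligand of the eosinophil receptor Ccr3, was low throughout, at 0.371 to 2.07 CPM in KP and 0.338 to 0.40 CPM in KPH2 2 to 4 (log2 fold change -1.83, SE 0.65). It entered the test through KP tumours alone, at 3 or 4 counts in KPH2 2 to 4, and did not pass the filter over all 8. Ccl22 (log2 fold change 0.69, SE 0.45), a ligand of the T cell receptor Ccr4, had 0.593 to 2.04 CPM in KP and 1.53 to 2.71 CPM in KPH2 2 to 4. Its partner by cluster and receptor, Ccl17, was not tested and did not exceed 0.99 CPM in any library.

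Among homing CC ligands, which guide lymphocytes and dendritic cells in healthy tissue, Ccl21a had the largest fold change of the 39 members. Ccl21a stood at 1.63, 0.99, 0.148 and 0 CPM in KP 5 to 8, and at 7.74, 29.9 and 6.65 CPM in KPH2 2, 3 and 4. In KPH2 1 it was 1.36 CPM, within the KP range. KPH2 3 was the highest and KP 8 had no count. The KP mean was 0.693 ± 0.764 CPM (SD, n = 4), beside 14.8 ± 13.1 CPM (SD, n = 3) for KPH2 2 to 4 (log2 fold change 4.34, SE 0.99, edgeR adjusted p = 0.0708). Without KPH2 3 the log2 fold change was 3.31 and without KP 5 it was 5.47, and over all 8 tumours it was 3.98 (edgeR adjusted p = 0.197). Near-identical copies make this value uncertain, since 50.3% of the 100-base reads of Ccl21a also occur in Ccl21b or in other copies, and the counts hold unique alignments only.

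Marker sums are given beside Ccl21a, and no association with it was tested. The skeletal muscle sum was 4163, 6630 and 1473 CPM in KPH2 2, 3 and 4, the tumours high in Ccl21a, and it was 561 CPM in KPH2 1, where Ccl21a was low. In KP 5, 6, 7 and 8 it was 1358, 590, 622 and 1099 CPM, so KP 5 came close to KPH2 4 in muscle markers with less Ccl21a (1.63 against 6.65 CPM), and KP 8 exceeded KP 6 and KP 7 with no Ccl21a count. Lymphatic endothelium is a known source of Ccl21. Of its 4 markers Prox1 was at 0.302 to 1.56 CPM in KP and 2.59 to 11.4 CPM in KPH2 2 to 4, with 0.32 CPM in KPH2 1, and Flt4 was at 18.9 to 21.2 and 25.4 to 56.1 CPM, with 8.63 CPM in KPH2 1. Neither was called (edgeR adjusted p = 0.0794 and 0.183 over 7 tumours, 0.275 and 0.644 over all 8). Lyve1 and Pdpn were lower in KPH2 (log2 fold change -1.94 and -0.91), and the 4 summed to 172 to 555 CPM in KP and 184 to 207 CPM in KPH2 2 to 4, with 199 CPM in KPH2 1. Dendritic cell markers summed to 30.1 to 38.2 CPM in KP and 41.1 to 56.2 CPM in KPH2 2 to 4, with 27.3 CPM in KPH2 1. With the muscle score as a covariate Ccl21a was at 2.60 on the log2 scale (edgeR adjusted p = 0.659), and the part of lymphatic endothelium and of dendritic cells was not tested. Its receptor Ccr7, found on dendritic cells and T cells, stood at 1.86, 1.56, 1.48 and 3.47 CPM in KP and 2.16, 1.20 and 2.82 CPM in KPH2 2, 3 and 4. The groups overlapped for Ccr7 (log2 fold change -0.05, SE 0.45).

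Ccl27a, a skin-associated ligand of Ccr10, also separated the groups, by a small margin. The KP tumours had 2.23, 1.27, 1.63 and 2.34 CPM. KPH2 2, 3 and 4 had 2.43, 3.7 and 2.37 CPM and KPH2 1 had 2.56 CPM. All 4 KPH2 tumours were above KP, but the log2 fold change was 0.57 (SE 0.35, edgeR adjusted p = 0.445). Its value is uncertain too, since 26.5% of its 100-base reads also occur in Ccl27b or other copies, and such reads have no unique alignment. Ccl21a and Ccl27a were the 2 of 39 members above every KP tumour over 7 tumours (5.13%, against 8.73% of all genes), and Ccl27a alone over 8 (2.56%, against 3.75%). Ccr10 did not exceed 1.04 CPM in any library and was not tested. Ccl25, a ligand of Ccr9, was nearly level at 2.57 to 3.82 CPM in KP and 2.43 to 3.83 CPM in KPH2 2 to 4 (log2 fold change -0.01, SE 0.30).

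**Figure D5:**
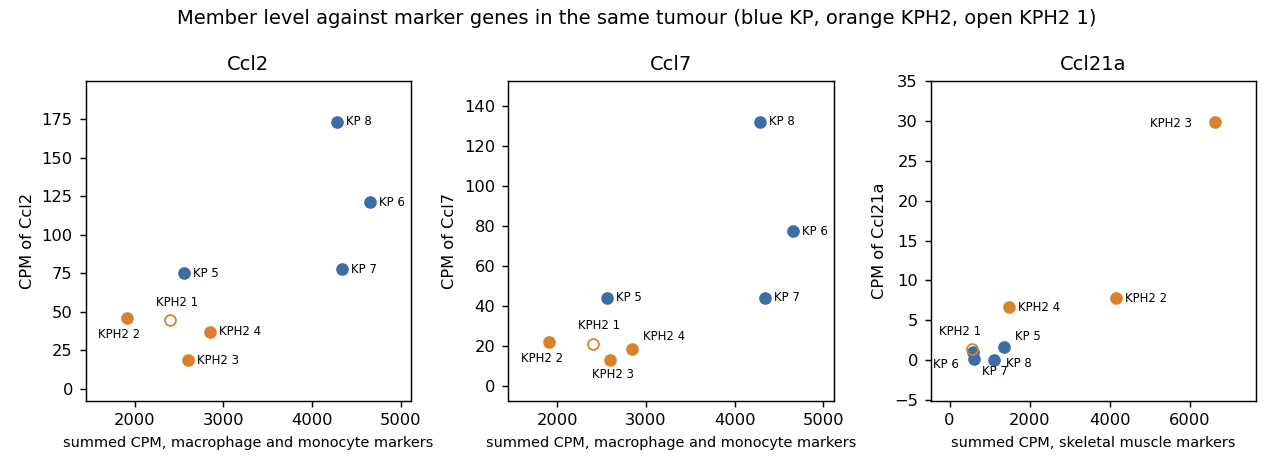
CPM of Ccl2 and Ccl7 against the summed CPM of macrophage and monocyte markers, and CPM of Ccl21a against the summed CPM of skeletal muscle markers, with 1 point per tumour (blue KP, orange KPH2, open KPH2 1). KP 5, at 2559 CPM of macrophage markers, lies within the range of the KPH2 tumours on that axis, KP 6, 7 and 8 lie above it, and KPH2 3 is the highest in both Ccl21a and muscle markers.

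The CXC ligands that attract neutrophils through Cxcr2 varied widely within groups, and Cxcl3, Cxcl5 and Cxcl2 had the 3 largest SE of the 39 members. Of the 4 tested, 3 had negative log2 fold changes, Cxcl1 at -1.90 (SE 0.78), Cxcl2 at -1.23 (SE 1.17) and Cxcl3 at -2.31 (SE 1.54), and Cxcl5 was at 1.19 (SE 1.25). Cxcl1 had 1.11, 9.76, 14.2 and 8.90 CPM in KP 5 to 8, and 2.16, 1.10 and 3.49 CPM in KPH2 2, 3 and 4, with 3.84 CPM in KPH2 1. KP 5 lay with the KPH2 tumours and the other KP tumours above all 4 of them. Without KP 5 the edgeR adjusted p for Cxcl1 was 0.0449, against 0.253 with it and up to 0.461 with another tumour left out, and the sign turned with the muscle score (0.10) and the macrophage score (0.73). Cxcl2 spread from 0.297 to 10.2 CPM in KP and from 0.10 to 3.69 CPM in KPH2 2 to 4, and its sign turned too with either score (2.90 and 1.22). Cxcl5 had 0.594, 15, 4.45 and 6.94 CPM in KP, 41.3, 0.801 and 3.16 CPM in KPH2 2, 3 and 4, and 2.4 CPM in KPH2 1. Its positive fold change rested on KPH2 2, without which it was -1.76. Neutrophil markers summed to 113 to 263 CPM in KP, 79.0 to 128 CPM in KPH2 2 to 4 and 252 CPM in KPH2 1. Of these markers 4 of 4 tested were lower, against 52% of all genes. With 0 called, 1 passed an unadjusted p of 0.05 (25%, against 17.8% of all genes). Mmp9 stood at 75.4 to 234 CPM in KP, 45.5 to 107 CPM in KPH2 2 to 4 and 236 CPM in KPH2 1, so the sums rest largely on this 1 gene. The defining marker Ly6g was at or below 0.148 CPM in every library, and the part of neutrophils in these ligands was not tested. Cxcr2 itself was at 0.149 to 2.97 CPM in KP and 0.10 to 2.34 CPM in KPH2 2 to 4.

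The 3 interferon-induced ligands of Cxcr3 had negative log2 fold changes, as did 52% of all genes, with overlapping groups. Cxcl10 stood at 58.5, 23.3, 11.6 and 50.3 CPM in KP and at 39.9, 5.6 and 31.3 CPM in KPH2 2, 3 and 4, with 21.5 CPM in KPH2 1 (log2 fold change -0.50, SE 0.70). The value moved to -0.02 without KPH2 3, the lowest tumour, to -0.97 without KPH2 2, to -0.15 without KP 5 and to -0.30 without KP 8. Cxcl9 had 52.5, 16.1, 7.26 and 18.8 CPM in KP and 18.0, 12.5 and 13.0 CPM in KPH2 2, 3 and 4 (log2 fold change -0.72, SE 0.58), and KP 5 alone stood above the rest. Without KP 5 it was 0.04. Cxcl11 was at 0.849 to 2.11 CPM in KP and 0.225 to 0.901 CPM in KPH2 2 to 4 (log2 fold change -1.33, SE 0.54, edgeR adjusted p = 0.245). It entered the test through KP tumours alone, and without KP 5 or KP 8 it did not pass the filter. T and NK cell markers summed to 18.8 to 64.2 CPM in KP and 21.5 to 38.6 CPM in KPH2 2 to 4 (12 of 13 tested lower, against 52% of all genes, 0 called, 0 at an unadjusted p of 0.05), and their part was not tested.

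Of the other CXC ligands, Cxcl12, Cxcl14 and Cxcl16 had log2 fold changes between -0.04 and -0.01. Cxcl13, a B cell attractant named after its values were seen, was at 0.47 (SE 0.64), with 0.445 to 3.64 CPM in KP and 1.13 to 4.4 CPM in KPH2 2 to 4, and Cxcl17 was not tested. Cxcl12, the stromal ligand of Cxcr4 and Cxcr7, had 98.0, 148, 259 and 304 CPM in KP and 206, 140 and 259 CPM in KPH2 2, 3 and 4, with 61.9 CPM in KPH2 1. The means were 202 ± 95.4 CPM (SD, n = 4) and 201 ± 59.8 CPM (SD, n = 3). Cxcl14 ranged from 22.8 to 94.3 CPM in KP and from 31.0 to 77.9 CPM in KPH2 2 to 4, and KPH2 1 had 5.75 CPM. Cxcl16, a membrane-bound ligand of Cxcr6, ranged from 47.0 to 69.1 CPM in KP and from 47.7 to 74.4 CPM in KPH2 2 to 4 (log2 fold change -0.02, SE 0.20), and KPH2 1 was the lowest at 30.4 CPM. KPH2 1 was the lowest of 8 tumours for Cxcl12, Cxcl14 and Cxcl16. Cx3cl1, the CX3C ligand fractalkine, had 45.8, 41.2, 16.8 and 24 CPM in KP and 25.1, 102 and 31.4 CPM in KPH2 2, 3 and 4, with 100.3 CPM in KPH2 1 (log2 fold change 0.72, SE 0.54). KPH2 1 and KPH2 3 were high and the other 2 KPH2 tumours lay within KP. Without KPH2 3 the log2 fold change of Cx3cl1 was -0.178, with the muscle score it was -0.397, and its sign also turned with the macrophage score.

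On the receptor side, 10 of 12 tested receptors (83.3%, against 52% of all genes) had a negative log2 fold change over the 7 tumours. None of the 10 passed an unadjusted p of 0.05, and Cxcr4 (-0.02) and Ccr7 (-0.05) were nearly level. Ccr2, the receptor of Ccl2, Ccl7 and Ccl12 on monocytes, stood at 92.6, 180, 74.9 and 312 CPM in KP and 43.8, 112 and 61.2 CPM in KPH2 2, 3 and 4, with 69.9 CPM in KPH2 1. KPH2 3 lay above KP 5 and KP 7, so the groups overlapped. The log2 fold change was -1.19 (SE 0.54, edgeR adjusted p = 0.303), and -0.68 without KP 8. With the macrophage score as a covariate its sign turned, to 0.06. Ccr1, the receptor of Ccl3, Ccl6, Ccl7 and Ccl9 on myeloid cells, had 22.9, 111, 91.5 and 96.7 CPM in KP and 47.4, 59.4 and 54.4 CPM in KPH2 2, 3 and 4. KP 5 was the lowest of all 8. With it the log2 fold change was -0.58 (SE 0.46, edgeR adjusted p = 0.566), and without it -0.88 (edgeR adjusted p = 0.0398). Without KP 6 it was -0.39 (edgeR adjusted p = 0.763), and none of the other leave-outs passed. The sign turned with the muscle score (0.13) and with the macrophage score (1.24) as a covariate.

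Cx3cr1, the receptor of Cx3cl1 on resident macrophages and patrolling monocytes, had 116, 189, 83.8 and 298 CPM in KP and 110, 192 and 156 CPM in KPH2 2, 3 and 4, with 81.6 CPM in KPH2 1 (log2 fold change -0.17, SE 0.42), so the groups overlapped. Whether its change differed from that of Ccr2 was not tested. Xcr1, a receptor of cross-presenting dendritic cells, was at 1.33 to 3.17 CPM in KP and 0.27 to 1.70 CPM in KPH2 2 to 4 (log2 fold change -0.97, SE 0.59). Among dendritic cell markers 4 of 6 tested were lower and 2 higher in KPH2. Of the 6, 1 was called (16.7%, against 1.96% of all genes), and at an unadjusted p of 0.05 the share was 16.7% against 17.8%. The gene called was Itgax, higher in KPH2 (log2 fold change 1.24, edgeR adjusted p = 0.0239). Over all 8 tumours the call was lost (edgeR adjusted p = 0.22), and KPH2 1, at 10.8 CPM, lay within the KP range of 9.88 to 15.1 CPM. Cxcr6, a receptor of T and NKT cells, ranged from 5.78 to 9.89 CPM in KP and from 3.6 to 7.11 CPM in KPH2 2 to 4. Cxcr4, the signalling receptor of Cxcl12, was at 21.6, 44.1, 50.6 and 21.7 CPM in KP and 49.2, 15.5 and 36.9 CPM in KPH2 2, 3 and 4 (log2 fold change -0.02, SE 0.45).

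Cxcr7, now named Ackr3, is an atypical receptor that takes up Cxcl12 and Cxcl11 without G protein signalling, and it was the receptor with the largest fold change. Its level was 13.8, 23.5, 23.9 and 48.4 CPM in KP 5 to 8. KPH2 2 and KPH2 4 stood far above, at 176 and 105 CPM, while KPH2 3 at 37.6 CPM lay below KP 8. KPH2 1 had 5.67 CPM, the lowest of all 8. The means were 27.4 ± 14.7 CPM (SD, n = 4, KP) and 106 ± 69.0 CPM (SD, n = 3, KPH2 2 to 4), and the log2 fold change was 1.95 (SE 0.55, edgeR adjusted p = 0.121). Over all 8 tumours it was 1.56 (SE 0.84, edgeR adjusted p = 0.424). The exact permutation p was 0.086 over 7 tumours and 0.51 over 8, and DESeq2 called it over 7 tumours (adjusted p = 0.00452) and not over 8 (adjusted p = 0.404). Its gene lies on chromosome 1 of GRCm38 (chr1:90203980-90215724).

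The deleted gene encodes a factor that binds the core letters ACGTG or GCGTG, so the member promoters were searched on both strands for them. RefSeq promoters (GRCm38.p6) were found for 41 of the 57 members, and the 250 bases before each start were used. Ccl2, Ccl7 and Ccl11 were not among the 41 and were not searched. A core was present in 20 of 41 (48.8%), against 38.6% of 27025 gene promoters. Taken apart, ACGTG was in 12.2% of member promoters against 16.6%, and GCGTG in 41.5% against 28.2%. A match is a description of the letters and not a binding site. The Cxcr7 window is shown for the receptor with the largest fold change, with its 1 core in capitals, and the Ccl21a window held no core.
Cxcr7 promoter, chr1:90203730-90203979, plus strand: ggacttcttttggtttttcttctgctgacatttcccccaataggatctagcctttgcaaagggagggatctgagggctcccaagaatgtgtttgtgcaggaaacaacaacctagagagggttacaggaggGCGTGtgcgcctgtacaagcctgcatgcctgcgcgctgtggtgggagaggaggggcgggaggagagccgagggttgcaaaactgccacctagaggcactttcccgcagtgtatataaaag

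Pathway genes outside the members were read from 3 lists. Of 7 tested other ligands and decoy receptors, 5 were lower and 2 higher in KPH2 and 0 passed the edgeR adjusted p, with 3 at an unadjusted p of 0.05 (42.9%, against 17.8% of all genes). Ccbp2 (Ackr2), a decoy that clears inflammatory CC ligands such as Ccl2, was at 0.297 to 1.56 CPM in KP and 2.25 to 3.80 CPM in KPH2 2 to 4 (log2 fold change 2.05, edgeR adjusted p = 0.0917), with 0.799 CPM in KPH2 1. The platelet chemokine Pf4 was at -1.03 on the log2 scale and the chemerin receptor Cmklr1 at -0.83.

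Of 40 tested signalling genes below the receptors, 27 were lower and 13 higher, a median of -0.20, with 13 at an unadjusted p of 0.05 (32.5%, against 17.8% of all genes) and 3 called (7.5%, against 1.96%). Rgs18 (log2 fold change -1.79, edgeR adjusted p = 0.0386), which shortens G protein signals in blood cells, and Grk5 (-1.19, edgeR adjusted p = 0.0499), a kinase that desensitises receptors, were called lower. KPH2 1 lay below the KP range for both, at 3.68 CPM (KP 6.37 to 9.88) and 15.6 CPM (KP 28.9 to 56.9). Plcb3, a phospholipase C, was called higher (0.69, edgeR adjusted p = 0.0499), but KPH2 1 stood at 61.0 CPM, within the KP range of 59.6 to 76.8 CPM. Over all 8 tumours none of the 3 was called (edgeR adjusted p = 0.107 for Rgs18, 0.103 for Grk5 and 0.292 for Plcb3). Of 23 tested cytokines and transcription factors that switch on chemokine genes, 14 were lower and 9 higher and 0 were called. At an unadjusted p of 0.05, 3 of the 23 passed (13%, against 17.8% of all genes), namely Epas1, Il1a and Myd88. Epas1, the deleted gene, is 1 of these 3 and 1 of the 14, which the genotype fixes. Il1a was at 1.45 (SE 0.53) and Myd88 at -0.485 (SE 0.202) on the log2 scale. Tnf, which did not pass an unadjusted p of 0.05 and falls outside the naming rule, was at -0.77 (SE 0.37).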

How the data were processed

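RNA-seq was analysed for 8 tumours, with members and gene lists chosen with earlier results of these data known. Per the labels and methods, the authors made stranded, ribosomal RNA-depleted libraries, processed reads with CASAVA 1.8.2, aligned them to GRCm38 with STAR 2.4 and deposited raw counts of unique alignments per RefSeq gene from HTSeq 0.6.1, without normalisation. The authors also deposited log2 values from the regularised log transformation of DESeq2 1.6 (rlog), of which the 7-tumour table served as an alternative.

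The tests ran in edgeR 4.0.16 under R 4.3.3 (TMM, minimum count 10, minimum total 15, robust quasi-likelihood test, no covariate) on the counts of all genes, at an adjusted p of 0.05. CPM used TMM library sizes over all 8 tumours, and log2 CPM a prior count of 2. Exact permutation tests, 2-sided and given only for members not named for groups that do not overlap, used the 35 splits of 7 or the 70 splits of 8 tumours (smallest p 0.029). Total counts ran from 6463221 to 13155510, and the floor of 3 counts covers counting error only. The tests were also tried on simulated data, but the outcome is not given here and no result rests on it.

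Members were named where the groups did not overlap, then the 3 with the highest level per kb in each role, then the partners of the former. A member gene and an allele shared by both groups are not reported here. Roles were assigned from general knowledge after the files were read. Alternatives were all 8 tumours, DESeq2 size factors, upper-quartile scaling, no filter or a mean count of 50, DESeq2 1.42.0, limma 3.58.1 on rlog values, a skeletal muscle score, no robust estimates, a prior count of 0.5 and leaving out each tumour. A macrophage marker score and DESeq2 over all 8 tumours were added after seeing the data. Gene positions and promoters came from RefSeq (GRCm38.p6). Shared 100-base reads and coding bases came from GENCODE M21.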

Additional observations from a re-analysis of the deposited data

Results flagged for a closer look

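Among 58 sets of 4 tumours tested, 3 values stood far from the other 3 of their group by Dixon's test at its 95% level, which chance alone passes in about 1 in 20 groups. Ccl27a reached 3.7 CPM in KPH2 3, with the gap to the nearest tumour 0.857 of the range of the KPH2 group. Cxcl5 reached 41.3 CPM in KPH2 2, with a gap of 0.942 of the range. Epas1, the deleted gene, was lowest of the KP tumours in KP 5, at 59.2 CPM, with a gap of 0.867 of the range.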

How the results depend on the processing

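The number of members past the adjusted p of 0.05 was 0 in edgeR, 5 in DESeq2, 3 in DESeq2 over all 8 tumours, 1 with limma on rlog values and 0 to 3 when 1 tumour was left out (3 without KP 5, namely Ccl7, Ccr1 and Cxcl1). Over all genes it was 292 in edgeR and 1 over all 8 tumours, 1175 in DESeq2 and 648 in DESeq2 over all 8, 3 with the muscle score, 27 with the macrophage score and 55 to 349 (lowest without KPH2 2, highest without KP 5) with 1 tumour left out. The members' median of -0.524 became -0.144 with limma on rlog values, -0.0971 with the muscle score, 0.421 with the macrophage score and -0.562 to -0.299 with 1 tumour left out. Epas1 (-0.815) was called at -0.808 in DESeq2, -0.911 in DESeq2 over all 8 tumours and -0.918 without KP 5, and ranged from -0.965 to -0.707 with 1 tumour left out.

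Several named members changed sign, and none of the values with the changed sign passed the adjusted p. With limma Cxcl14 was at 0.0513 and Cxcl12 at 0.0504. With the muscle score the log2 fold change was -0.0971 for Ccl27a, 0.0952 for Cxcl1, 2.9 for Cxcl2, 0.581 for Cxcl12, 0.371 for Cxcl16, 0.27 for Ccl25, -0.397 for Cx3cl1, 0.127 for Ccr1, 1.17 for Cxcr4 and 0.193 for Ccr7. With the macrophage score it was 0.725 for Cxcl1, 1.22 for Cxcl2, 0.919 for Cxcl14, 1.19 for Cxcl12, 0.602 for Cxcl16, 0.421 for Ccl12, 0.111 for Ccl25, 0.179 for Ccl11, 0.838 for Cx3cr1, -0.0339 for Cx3cl1, 1.24 for Ccr1, 0.0647 for Ccr2, 0.355 for Cxcr4 and 0.611 for Ccr7. The difference in mean log2 CPM, which is not the edgeR value, went from 0.213 over 7 tumours to -0.0365 over all 8 for Cxcl5, from 0.0986 to -0.636 for Cxcl14 and from 0.0852 to -0.328 for Cxcl12. With 1 tumour left out the ranges that crossed 0 were -1.76 to 1.92 for Cxcl5, -1.01 to 0.0442 for Cxcl9, -0.141 to 0.165 for Ccl25, -0.198 to 0.123 for Cxcl16, -0.393 to 0.327 for Cxcr4, -0.535 to 0.456 for Cxcl14, -0.229 to 0.255 for Cxcl12, -0.398 to 0.233 for Cx3cr1, -0.331 to 0.314 for Ccr7 and -0.178 to 1.06 for Cx3cl1. The cause was not tested, and over 7 tumours the fits with either score cannot separate the score from genotype.

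Ccl2, Ccl7, Ccl21a, Ccl22, Cxcl10, Cxcl11, Cxcr6, Cxcr7 and Xcr1 kept their sign under every alternative that gave them a value. Ccl21a was at 2.37 with the macrophage score, and Cxcr7 at 2.27 with the muscle and 2.96 with the macrophage score. No paired analysis was possible because KP and KPH2 tumours share no replicate number. Members at under 1 CPM rest on few counts per library, which limits what can be said of their differences.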
